A study of Mus musculus with 2 samples.

Results

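Shared exon peaks were defined as DNase-seq peaks of replicate 1 on chromosomes 1 to 19 and X that overlapped a peak of replicate 2 by at least 1 bp. Their centre had to lie inside an exon of a protein-coding gene (GENCODE M21) and more than 1 kb from every start site of such a gene. The rule left 4412 of the 170217 peaks of replicate 1, or of the 114194 peaks of replicate 1 that were shared. The peaks came from MN1, an immortalized mouse line of strain B6NCrl. The series held 1 group of 2 biological replicates with 1 library each, and its labels leave tissue, treatment, sex and age unstated. Sequencing instruments are named for replicate 2 alone, and whether the replicates were separate cultures is not said. With no second condition sampled, the exon peaks were compared with intron and intergenic peaks of the same libraries, and no test over samples was possible.

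DNase I preferentially cuts DNA in nuclei where no nucleosome covers it, so clusters of cuts mark promoters, enhancers and insulators. Exons are selected for the protein or the transcript they encode, and some also hold sites for DNA-binding proteins, so that the same bases serve both uses. CTCF, which anchors chromatin loops and blocks enhancers, and AP-1, the dimers of Fos and Jun that bind many enhancers, each recognise a sequence that can be searched for directly in such regions.

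The following peaks lay wholly in coding sequence and had the highest mean score rank among those that held a CTCF motif match (6 shown of 14) or an AP-1 match (3 shown of 35). These numbers are of 652 wholly coding peaks. Sequences are from GRCm38, the same assembly as mm10, printed on the coding strand of the gene from 5′ to 3′. Capitals mark the motif match, which was matched as a consensus on both strands. In the first 6 sequences the match is CTCF's, in the last 3 it is AP-1's (TGACTCA or TGAGTCA).
Synpo2l, chr14:20661076-20661225, - strand: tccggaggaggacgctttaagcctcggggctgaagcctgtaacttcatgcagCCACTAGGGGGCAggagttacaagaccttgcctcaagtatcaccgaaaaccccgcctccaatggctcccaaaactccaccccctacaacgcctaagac
Utrn, chr10:12690756-12690905, - strand: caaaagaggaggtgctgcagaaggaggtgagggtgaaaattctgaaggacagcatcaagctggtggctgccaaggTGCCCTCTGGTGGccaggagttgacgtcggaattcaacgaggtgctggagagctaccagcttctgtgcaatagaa
Slc8a3, chr12:81199696-81199845, - strand: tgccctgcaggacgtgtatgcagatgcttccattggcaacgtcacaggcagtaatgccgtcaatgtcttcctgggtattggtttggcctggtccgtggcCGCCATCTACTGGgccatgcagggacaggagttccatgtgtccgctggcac
Klf10, chr15:38297376-38297525, - strand: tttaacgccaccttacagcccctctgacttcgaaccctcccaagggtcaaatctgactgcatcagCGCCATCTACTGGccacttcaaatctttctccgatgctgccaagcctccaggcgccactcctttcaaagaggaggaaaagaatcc
Mroh6, chr15:75884196-75884345, - strand: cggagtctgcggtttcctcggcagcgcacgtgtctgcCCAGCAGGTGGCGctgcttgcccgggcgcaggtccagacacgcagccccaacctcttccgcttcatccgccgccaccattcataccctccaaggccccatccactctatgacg
Zscan10, chr17:23610636-23610785, + strand: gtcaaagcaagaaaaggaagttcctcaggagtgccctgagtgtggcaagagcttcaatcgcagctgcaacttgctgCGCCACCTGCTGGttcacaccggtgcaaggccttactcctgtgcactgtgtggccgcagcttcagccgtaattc
Gdf15, chr8:70629976-70630125, - strand: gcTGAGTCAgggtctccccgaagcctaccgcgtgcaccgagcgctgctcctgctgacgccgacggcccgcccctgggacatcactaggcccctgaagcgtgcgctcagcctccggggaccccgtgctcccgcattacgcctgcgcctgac
Cldn6, chr17:23681176-23681325, + strand: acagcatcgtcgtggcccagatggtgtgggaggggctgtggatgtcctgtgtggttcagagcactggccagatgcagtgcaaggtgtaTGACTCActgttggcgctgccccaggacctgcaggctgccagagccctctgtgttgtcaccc
Prox2, chr12:85094136-85094285, - strand: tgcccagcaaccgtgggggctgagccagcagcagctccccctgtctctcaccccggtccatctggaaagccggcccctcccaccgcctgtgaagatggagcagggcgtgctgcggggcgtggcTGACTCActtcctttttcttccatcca

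The deposited score of a peak ran between 1 and 150 and had no stated normalization, so it was read as a rank within each library. The CTCF peak of Synpo2l, which encodes a cytoskeletal protein of muscle, scored 116 in replicate 1 and 119 in replicate 2, at the 91.85 and 93.36 percentile of all peaks of the libraries. The one in Utrn, the gene of the dystrophin relative utrophin, scored 109 and 105. The peaks in Slc8a3 (104 and 107), a sodium-calcium exchanger, and Klf10 (104 and 105), a zinc finger factor induced by TGF-beta, followed. In Mroh6 the scores were 101 and 99. In Zscan10, whose last exon encodes zinc fingers, they were 104 and 95. The 6 matches ran along the coding strand in Synpo2l and Mroh6 and on the opposite strand in the other 4. Of the AP-1 peaks, that of Gdf15, a stress-induced growth factor, ranked highest, with 137 in replicate 1 and 135 in replicate 2. The peaks in Cldn6, a tight junction claudin, scored 119 in both libraries, and that in Prox2, a homeobox gene, scored 118 and 117. All 9 peaks thus ranked in the upper part of both lists, which is how they were chosen. A consensus match does not show that the factor was bound.

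Promoter peaks at marker genes of cell types were counted. Over all coding genes, 12932 of 21755 had a promoter peak in both libraries. With that share and so few genes in each list, the counts do not settle the cell type. A promoter peak was present in each library at all 10 pan-neuronal genes, at 5 of 7 motor neuron genes (Isl1, Isl2, Lhx3, Chat and Slc18a3, and neither Mnx1 nor Slc5a7) and at 5 of 8 sympathoadrenal genes (with no peak at Th in either library). Of markers of other cell types, 2 of 4 glial genes (Gfap and S100b), 2 of 3 fibroblast genes (Col1a1 and Pdgfra), 0 of 2 muscle genes and 0 of 3 blood genes had one. Replicate 1 held 170600 distinct peaks and 140519 hotspots, and replicate 2 held 162983 peaks and 135294 hotspots. Read depth is unknown, as the lists hold no counts. In a population of cells, a lower score can come from fewer cells with an open site or from less cutting per cell, and these cannot be told apart.

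Overlap between the libraries was part of the rule and is given as a description. Of the 6469 exon peaks of replicate 1 away from promoters, 68.2% overlapped a peak of replicate 2 (95% Wilson interval 67.06% to 69.33%). The share over all 129828 peaks away from promoters was 64.1%, with 65.81% for introns and 62.14% for intergenic sequence. In the list of replicate 2, 4454 of 6690 exon peaks were shared (66.58%, 65.44% to 67.7%). Here all peaks away from promoters gave 67.8%, introns 66.77% and intergenic sequence 69.01%. Exon peaks therefore had the highest share of the 3 classes in one list and the lowest in the other. Wilson intervals cover counting error only. With the peaks of replicate 1 split by score into 3 equal parts, low to high, the exon shares were 34.18%, 75.47% and 97.35%, against 33.85%, 75.5% and 97.15% in introns and 28.09%, 75.49% and 96.8% in intergenic sequence. In replicate 2 the exon shares were 34.08%, 73.62% and 95.92%, against 38.72%, 76.28% and 96.47% in introns and 41.33%, 80.51% and 96.21% in intergenic sequence. In replicate 2 the exon values of low and middle score thus lay below those of the other classes. Exon and intron values lay closer together in replicate 1. Peaks of a library are not replicates, so no difference between classes was tested. Exon peaks found in replicate 1 alone had a median GC content of 48.67% (n = 2057), those found in replicate 2 alone 54.0% (n = 2236), and the shared peaks 54.0%.

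Exons held more than their share of open sites. They made up 2.834% of the sequence away from promoters (69.78 Mb) and held 5.302% of the shared peaks there, a ratio of 1.871. Counted in the list of replicate 2, the ratio was 1.887. Exons had 63.23 shared peaks per Mb, against 43.4 in introns and 26.79 in intergenic sequence. The densities of the replicate 2 list were 63.83 in exons, against 43.36 and 26.82. Both lists count the same overlaps, each from its own side, so values this close follow from the rule. With all peaks of a single library, shared or not, the ratio of shares was 1.758 in replicate 1 and 1.923 in replicate 2.

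Exons lie closer to start sites and are richer in GC than introns, and both move with the density of open sites. The median exon peak lay 4564 bp from the nearest start site, against 11110 bp for intron peaks and 28469 bp for intergenic peaks. Between 1 and 2.5 kb from a start site, exons had 94.8 shared peaks per Mb, against 88.61 in introns and 95.76 in intergenic sequence. Between 10 and 25 kb they had 53.36, against 45.42 and 47.01, and beyond 50 kb 25.9, against 22.56 and 14.47. At equal distance the exon density was 1.134 times that of introns, where the plain ratio was 1.457. Against GC content the order turned. Where 55% to 60% of the bases were G or C, exons had 140.2 shared peaks per Mb and introns had 188.0. At 60% or more the densities were 227.8 and 320.1. Exons had the higher density between 45% and 50% GC, with 61.21, against 52.14 in introns. Held to intron sequence of the same distance and GC class at once, exons had 0.7453 times the intron number in the list of replicate 1 and 0.721 times in that of replicate 2. Without windows of which repeats made up 50% or more, the ratios were 0.6413 and 0.6197. The classes were 6 steps of distance by 6 of GC, and the standardised ratios were chosen after the plain densities were seen. How well reads map to exons and introns was not assessed.

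**Figure D1:**
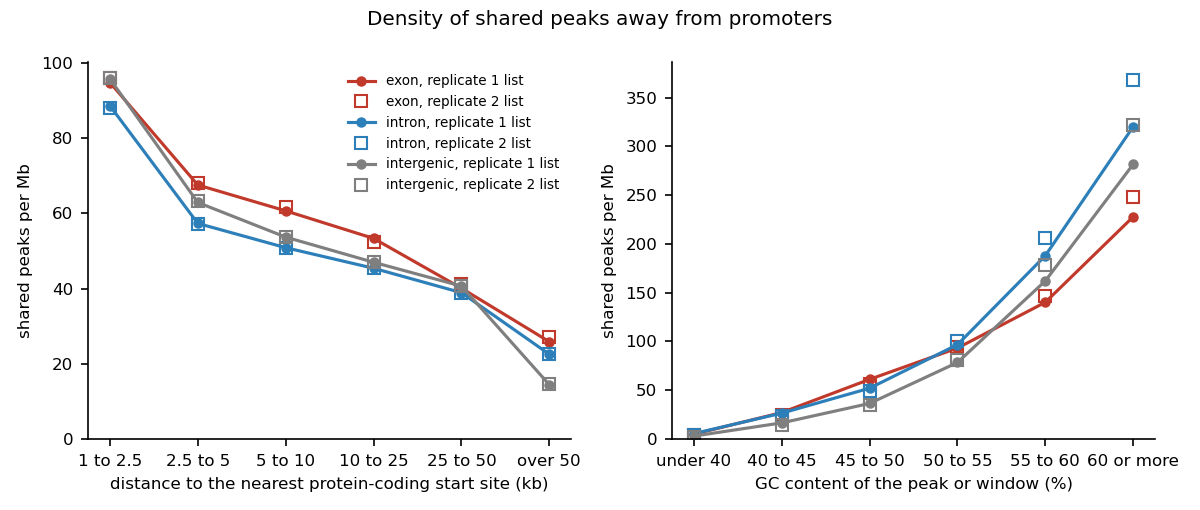
Shared peaks per Mb of sequence away from promoters (vertical axes) by distance to the nearest protein-coding start site in kb (left) and by GC content in percent (right). Filled points and lines are the list of replicate 1, open squares that of replicate 2, in exons (red), introns (blue) and intergenic sequence (grey). Exons lie above introns in every distance class, with 94.8 against 88.61 nearest to start sites, but below them at the highest GC contents, with 227.8 against 320.1.

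The lower density at equal distance and GC content was found in coding sequence. Coding sequence held 1682 of the 4412 peaks, 3′ untranslated regions (UTRs) 1827, 5′ UTRs 75, and 828 lay in exons found only in transcripts that encode no protein, of which 632 were annotated as retained introns. These 828 peaks lie in exons of coding genes by the rule but not in exons of any coding transcript. Coding sequence had 66.09 peaks per Mb, 5′ UTRs 110.6, 3′ UTRs 59.42 and the non-coding exons 64.16. Divided by the intron number at equal distance and GC, the values were 0.5182 for coding sequence, 1.207 for 5′ UTRs, 1.001 for 3′ UTRs and 1.052 for non-coding exons. In the list of replicate 2 they were 0.4979, 1.201, 0.9765 and 1.062. Coding sequence had the lowest value in both lists. These lists count the same overlaps from either side, so their closeness does not measure the spread between libraries. Without sequence of which repeats made up 50% or more, the values were 0.4345, 1.063, 0.8807 and 0.9911, so that 3′ UTRs and non-coding exons also lay below 1. At 50% to 55% GC, coding sequence had 59.81 shared peaks per Mb and 3′ UTRs had 118.5, against 96.78 in introns.

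**Figure D2:**
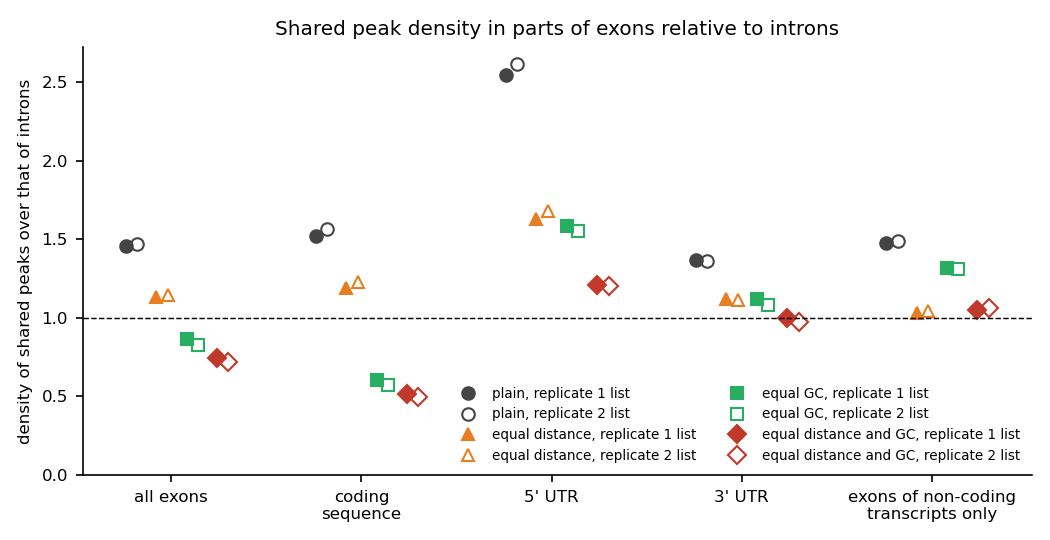
Density of shared peaks in each part of exons divided by the density in introns (vertical axis, linear, dashed line at 1), plain and at equal distance, equal GC content or both, for the lists of replicate 1 (filled) and replicate 2 (open). With both held equal, coding sequence falls to 0.5182 and 0.4979, while 3′ UTRs lie at 1.001 and 0.9765.

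Of the 4412 peaks, 2189 lay in the last exon of their gene, 1179 in internal exons, 75 in the first exon and 141 in genes with 1 exon. The 828 in non-coding exons were given no position. Sequence was not counted by exon position, so these counts are not densities. Away from promoters, 3′ UTRs alone made up 30.74 of the 69.78 Mb of exon sequence, and the rule leaves out sequence near start sites. Of the 1682 coding peaks, 1121 lay in internal exons, with a median exon length of 170 bp, and 449 in last exons, with a median of 1388 bp. The last exons with 3′ UTR peaks were longer (1736 peaks, median 2387 bp). Exons of 1 kb or more held 2078 peaks. In 3219 cases every coding transcript of the gene that spans the site kept the exon, and in 365 some spliced it out. The whole peak lay in exon sequence in 3386 cases and wholly in coding sequence in 676, or 652 without those on chromosome 18, whose sequences are not shown. On the X chromosome lay 59, whose share of the exon sequence was not counted.

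In score and width the exon peaks lay close to the other shared peaks away from promoters. Their median score lay at the 59.84 percentile of replicate 1 and the 60.25 percentile of replicate 2, against 58.88 and 56.45 for introns and 60.77 and 56.45 for intergenic peaks. Shared promoter peaks ranked higher (80.6 and 83.06). Across the 4412 regions the score percentiles of the libraries had a Spearman correlation of 0.8482, given as a description, since the regions share their libraries. The hotspots around exon peaks were a median of 326 bp wide in replicate 1 and 316 bp in replicate 2, against 332 and 307 bp for intron peaks. The deposited hotspot q-value was at its cap of 100 on the −log10 scale for 57.77% of exon peaks in replicate 1 and 56.41% in replicate 2. Within 1 kb of the start of a noncoding gene lay 3.966% of the exon peaks, against 2.238% of all exon windows. Repeats covered 50% or more of the peak in 1.496% of exon peaks, against 3.699% of intron peaks. Of all windows away from promoters, 8.343% in exons and 23.17% in introns were repeats to that extent.

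The 10 highest-ranking peaks scored 139 to 148 in replicate 1 and 135 to 143 in replicate 2. First came a peak in a non-coding exon of Gas2l1, which links actin and microtubules (chr11:5061896-5062045), with 145 and 141. Sf3b5, a subunit of the spliceosomal SF3b complex, followed with 148 and 139 in a 5′ UTR (chr10:13008336-13008485). Nup160, a nuclear pore scaffold protein, had 143 and 139 in a 5′ UTR 2056 bp from the nearest start site (chr2:90679196-90679345). In 3′ UTRs lay 5 of the 10. They included Vgf, a secreted neuropeptide precursor (141 and 141, chr5:137032796-137032945), whose peak sat in a hotspot of 6499 bp in replicate 1 and 5295 bp in replicate 2. The others of these 5 were in a, the agouti gene of coat colour (139 and 143), Slc36a1, a lysosomal amino acid transporter (142 and 139), Sox12, a SoxC transcription factor (143 and 138), and 1700008O03Rik, where the peak also lies in Shank1 (142 and 138). The peak in Slit3, an axon guidance ligand, lay in a non-coding exon 67786 bp from any coding start site (147 and 135). Slc4a5, a sodium bicarbonate cotransporter, had the only one centred in coding sequence (139 and 140). All 10 lay in hotspots at the cap in both libraries, and those of Slc36a1 and Slit3 held an AP-1 match.

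Most genes with an exon peak had just 1. The 4412 peaks fell in 3179 of the 21755 coding genes (14.61%), of which 2321 had 1 peak and 24 had 5 or more. Where coding genes overlapped, the peak was given to 1 gene (78 peaks). Some neighbouring peaks overlapped, and joining them left 4343 separate intervals. Dst, which encodes the giant cytoskeletal linker dystonin, had 9 exon peaks, of which 6 were in coding sequence, and 32 shared intron peaks (chr1:33908225-34308661). Fbxl20, an F-box protein of ubiquitin ligases, also had 9, and 4 in introns, in 10.9 kb of exon sequence away from promoters. Dst has 33.63 kb of such sequence, so that its 0.2676 exon peaks per kb compare with 0.8254 per kb in Fbxl20. Shank1, a scaffold of excitatory synapses, had 8, of which 5 were coding. Noct, the nocturnin phosphatase, had 7, with 5 in a 5′ UTR exon.

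Bcor, Btrc, Slc38a2, Slc39a14, Sox4 and Trim67 had 6 each. Bcor encodes a corepressor of BCL6, Btrc an F-box protein that marks beta-catenin for destruction, Slc38a2 an amino acid transporter and Slc39a14 a metal transporter. Sox4, a transcription factor gene with 1 exon, had the highest density of the 10 genes, at 1.581 peaks per kb, and no intron that could hold others. Its 6 peaks scored 44 to 76 in replicate 1 and 37 to 79 in replicate 2. Trim67, a tripartite motif protein of neurons, had one strong peak in the coding part of its first exon (131 and 137), and 5 in its 3′ UTR with 18 to 62 in replicate 1 and 6 to 40 in replicate 2. Each of the 10 genes also had an open promoter, with a peak there in each library.

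**Figure D3:**
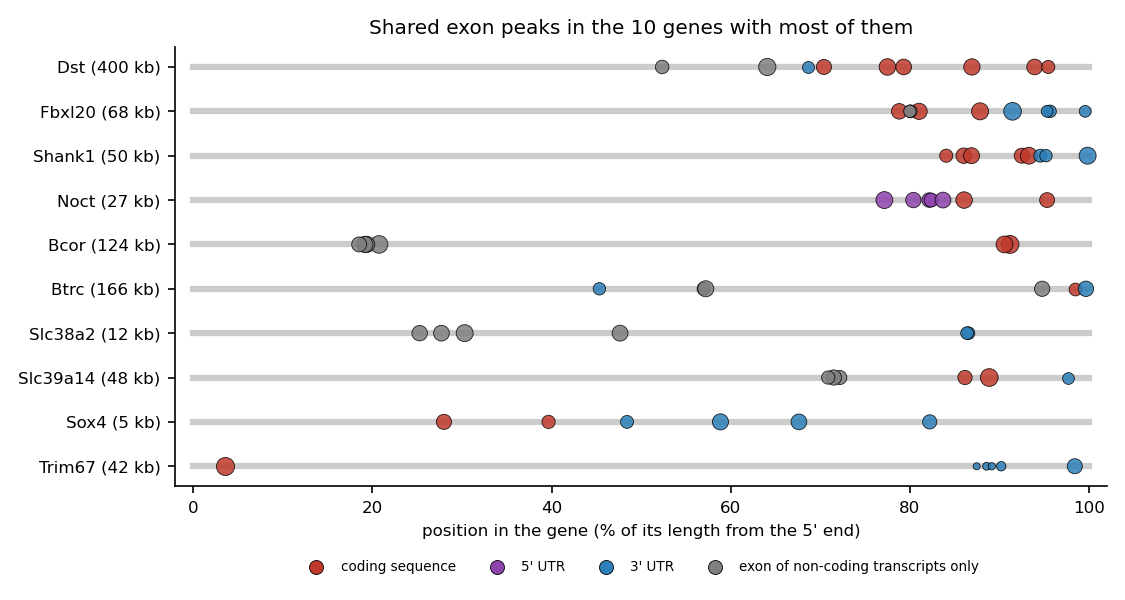
Position of the shared exon peaks in the 10 genes with most of them, in percent of the gene's length from its 5′ end (horizontal axis), 1 gene a line with its length in kb. Colour marks the part of the exon and point size the score percentile in replicate 1. In Dst, Fbxl20, Shank1 and Noct, which hold 7 to 9 peaks, all points lie in the distal portion of the gene.

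Exon peaks were more frequent in genes whose promoter was open. Of the 12932 genes with a promoter peak in both libraries, 20.86% had an exon peak, against 4.858% of the 8049 genes with a promoter peak in neither. The first group held 86.13% of the exon peaks. Per Mb of exon sequence away from promoters, the densities were 78.19 in genes with an open promoter and 24.93 in genes without. A gene needed sequence to hold a peak. Among genes with 8 kb or more of such exon sequence 32.86% had one, against 2.678% of those with under 500 bp, while peaks per Mb ran the other way (46.15 and 108.0).

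Gene families were described by how many of their members held an exon peak, beside the 14.61% and 62.48 peaks per Mb over all coding genes. Chromatin regulators had one in 22 of 59 genes (37.29%), at 71.0 peaks per Mb of exon sequence, and all 59 had an open promoter in both libraries. Over all genes with such a promoter the density was 78.19 peaks per Mb, so that chromatin regulators lay above the density of all coding genes and below that of genes with an open promoter. Ep300, the histone acetyltransferase p300, had 3 peaks, all in its last coding exon, with scores of 48, 92 and 90 in replicate 1 and 31, 76 and 85 in replicate 2. Kmt2d, a histone H3 lysine 4 methyltransferase, had 3, with 83, 78 and 51 in replicate 1 and 78, 72 and 31 in replicate 2. Smarcc2, a BAF complex subunit, had 3 in 3′ UTR sequence, with 66, 69 and 99 in replicate 1 and 30, 63 and 84 in replicate 2.

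Laminin genes had exon peaks in 5 of 11 cases (82.32 per Mb). The 3 in Lamc3 were coding, and a pair of them overlapped. Voltage-gated calcium and sodium channel genes had them in 7 of 20 (53.15 per Mb). They included Scn8a, the sodium channel of axon initial segments, with a coding peak of 127 in replicate 1 and 133 in replicate 2 (chr15:100983856-100984005). Cacna1a and Scn4a had 2 each. Other families had peaks in 5 of 24 glutamate receptor genes (46.77 per Mb, with 2 each in Gria2 and Grm2), 9 of 44 collagen genes (35.23 per Mb, Col17a1 first with 2) and 16 of 93 potassium channel genes (47.09 per Mb, with 2 in Kcnn3). Semaphorins and plexins had them in 4 of 29 (34.82 per Mb, Plxnd1 with 3).

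Among the families set by symbol, the lowest densities were those of clustered protocadherins, with 4 of 57 genes and 23.46 peaks per Mb (Pcdhb10 with 2, which overlapped), and of numbered zinc finger genes, with 32 of 394 genes and 30.6 peaks per Mb. Zinc finger genes had an open promoter in both libraries in 325 of 394 cases, and protocadherins in 24 of 57. The zinc finger genes with most peaks were Zfp775 with 4, and Zfp36l1 and Zfp36l2 with 3 each. Zfp36l1 and Zfp36l2 encode proteins of the CCCH type that bind mRNA, which the symbol pattern takes in with the DNA-binding type.

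Sympathoadrenal genes had exon peaks in 4 of 8 cases, in 14.51 kb of exon sequence. Phox2a, a homeobox gene of autonomic neurons, had one in the 3′ UTR with 127 and 119 (chr7:101822156-101822305). Gata2, a zinc finger factor, had 2, the stronger in its 3′ UTR with 117 in each library (chr6:88205456-88205605). Hand2, a basic helix-loop-helix factor, had one in coding sequence (93 and 105). Of pan-neuronal genes, Nefl and Stmn2 had 1 peak each (2 of 10 genes). None of the 7 motor neuron genes had one, in 16.08 kb. In the Hox clusters 2 of 39 genes had exon peaks (68.43 per Mb). Hoxc9 had 3 in 1 exon, with 103, 127 and 91 in replicate 1 and 90, 131 and 110 in replicate 2, and Hoxc10 had 1 (47 and 30). With so few genes in these lists, their counts are given as values only.

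CTCF matches were present in 238 of the 4412 exon peaks (5.394%, 95% interval 4.766% to 6.101%), against 4.414% of shared intron peaks and 5.722% of intergenic ones. Of all 150 bp exon windows away from promoters, 0.07542% held a match. By part, 3′ UTR peaks had a match in 7.17% (131 peaks), non-coding exons in 5.314% (44) and coding sequence in 3.567% (60), with 3 peaks in 5′ UTRs. The peaks with a CTCF match ranked higher than those without, with median percentiles of 72.96 and 70.11 in the 2 libraries, against 59.84 and 59.35. Relative to all windows of the same class, a match was 71.52 times as frequent in exon peaks, 82.02 times in intron peaks and 126.8 times in intergenic peaks, since exon windows hold the motif more often than intron (0.05381%) or intergenic windows (0.04511%).

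**Figure D4:**
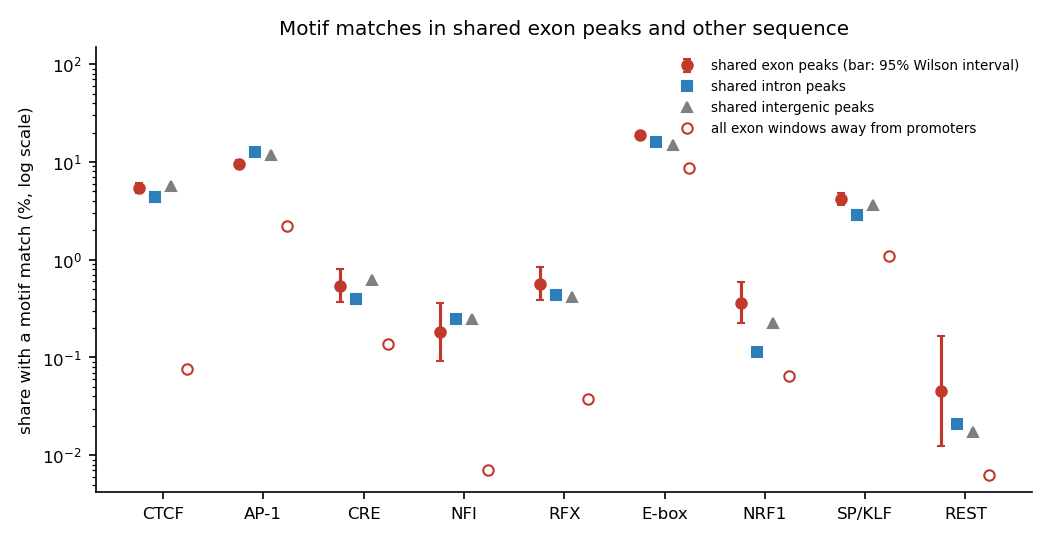
Share of regions with a match to each of 9 motifs (vertical axis, percent, log scale) in shared exon peaks (red, with 95% Wilson intervals), intron peaks (blue), intergenic peaks (grey) and all exon windows (open circles). CTCF stands at 5.394% of shared exon peaks against 0.07542% of exon windows, the widest gap between peaks and windows among the 9 motifs.

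Seen from the motif, 384 CTCF matches lay in exons away from promoters, and 60.16% of them were inside a peak of both libraries. In introns the share was 48.59% of 3478 matches and in intergenic sequence 46.2% of 4931. The exon value was made up of 69.84% in 3′ UTRs (132 of 189, interval 62.96% to 75.94%), 59.21% in non-coding exons (45 of 76) and 44.35% in coding sequence (51 of 115, 35.6% to 53.46%). Outside repeats the shares were 62.94% in exons, against 57.13% in introns and 53.55% in intergenic sequence. There, 3′ UTRs had 72.83% (173 matches, 65.76% to 78.91%) and coding sequence 44.86% (107 matches, 35.78% to 54.3%). In both settings the interval of 3′ UTRs lay above those of coding sequence, introns and intergenic sequence. It overlapped that of non-coding exons, at 47.98% to 69.56% over all matches. Outside repeats, non-coding exons had 66.67% (57 matches, 53.72% to 77.51%). The intervals cover counting error only. Matches of the same libraries are not replicates, so no difference between these parts was tested. Distance to start sites and GC content were not held equal here. In the single libraries, 3′ UTR matches were in a peak in 75.13% and 73.54% of cases and coding matches in 49.57% and 46.09%.

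**Figure D5:**
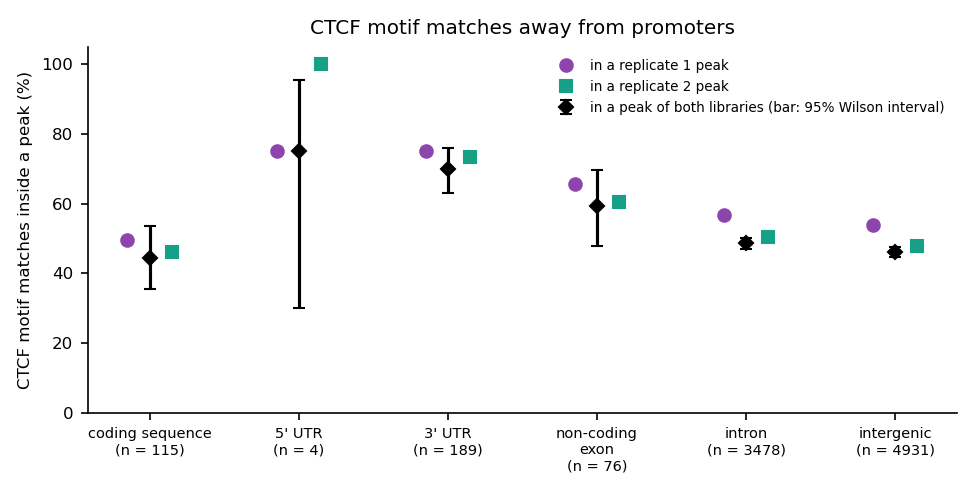
Share of CTCF motif matches away from promoters that lie inside a peak of replicate 1, of replicate 2 or of both libraries (vertical axis, percent), by the sequence that holds the match, with the number of matches. Bars are 95% Wilson intervals of the share in both. The share is 69.84% in 3′ UTRs, against 44.35% in coding sequence, and the 5′ UTR value rests on 4 matches.

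Of 107 CTCF matches wholly in coding sequence with a reading frame, 40 ran along the strand of the gene and 67 on the opposite strand. Of the 47 inside a peak of both libraries, 24 ran along the gene's strand and 23 opposite. Thus 24 of the 40 matches on the gene's strand were in shared peaks, and 23 of the 67 on the other strand. On the gene's strand 21 of the 40 began at base 3 of a codon, as did 14 of the 24 in shared peaks. Matches opposite to the gene began at codon positions 1, 2 and 3 in 23, 22 and 22 cases. With so few matches, these counts are given as values only. No difference between strands or codon positions was tested.

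AP-1 matches were in 418 exon peaks (9.474%, interval 8.645% to 10.37%), a lower share than in intron (12.58%) or intergenic peaks (11.91%), and in 2.232% of exon windows. They were in 7.253% of coding peaks, 10.13% of 3′ UTR peaks and 12.68% of peaks in non-coding exons, the last close to the intron value. Of the 10435 AP-1 matches in exons, 3.805% lay in a peak of both libraries (3.454% to 4.189%), against 3.117% of those in introns and 1.961% in intergenic sequence. In coding sequence the share was 3.0% of 3000 matches. Most AP-1 matches in exons were thus outside shared peaks. Most CTCF matches in exons were inside, though not those in coding sequence (44.35%). The AP-1 consensus spans 7 bases and the CTCF consensus 13, with 10435 and 384 matches in exons. The shares of the 2 motifs therefore do not compare how often the factors bind.

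The E-box CAGCTG, a core of sites for basic helix-loop-helix factors, was in 18.74% of exon peaks, against 16.08% of intron and 15.03% of intergenic peaks. It was also more frequent in exon windows as such (8.647%, against 5.825% of intron windows). The SP/KLF motif CCCGCCC was in 4.17% of exon peaks, against 2.871% of intron, 3.616% of intergenic and 23.11% of promoter peaks. It was in 1.083% of exon windows and 0.6891% of intron windows. Relative to windows of the same class, it was 3.852 times as frequent in exon peaks, 4.167 in intron and 6.747 in intergenic peaks. The NRF1 motif (GCGC and TGCGC with 1 base between) was in 16 exon peaks (0.3626%, against 0.06532% of exon windows), of which 14 were coding. These 16 ranked high (median percentiles of 81.13 and 80.96) and had a median GC content of 69.67%. The CRE motif TGACGTCA was in 24 exon peaks, the RFX motif (GTTNCC and GGNAAC with 2 bases between) in 25 and the NFI motif (TTGGC and GCCAA with 5 bases between) in 8. These were 0.544%, 0.5666% and 0.1813% of exon peaks, against 0.1384%, 0.0376% and 0.007091% of exon windows. Relative to windows of the same class, the CRE motif was 3.931 times as frequent in exon peaks, 5.031 in intron and 8.783 in intergenic peaks. In the same order, the values were 15.07, 17.12 and 19.44 for RFX, and 25.57, 29.01 and 29.73 for NFI. For NRF1 they were 5.552, 3.568 and 9.013.

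Of the wholly coding peaks with an NFI match, the highest in rank lay in Il21r, the interleukin 21 receptor (77 and 73, chr7:125632396-125632545). The one of these 652 peaks with a CRE match lay in Matk, a kinase that regulates Src family kinases (41 and 34, chr10:81259616-81259765). No peak among the 652 wholly coding ones had an RFX match. The motif of REST, the repressor of neuronal genes (CAGCACC and GGACAG with 2 bases between), was in 2 exon peaks and in 0.006231% of exon windows. The peaks were chosen for naming after their values were seen. One lay in the coding sequence of Hes3, a repressor of the Hes family (58 and 75), and one in a non-coding exon of Wscd2 (43 and 37).

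The 4 peaks nearest to the rule's distance limit are given as values only. Those just beyond 1 kb, which the rule kept, lay in Actn4, an actin crosslinker, 1001 bp from a start site (102 and 92), and in Tor3a, a torsin ATPase, at 1003 bp (83 and 49). Those that the rule left out lay in Lrrc3c (37 and 22) and Ppwd1, a prolyl isomerase (27 and 21), both at 1000 bp.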

How the data were processed

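DNase-seq was measured in 2 libraries of the MN1 line, 1 per biological replicate. The authors deposited a list of 150 bp peaks with a score and a list of hotspots with a q-value on the −log10 scale for each library, each derived from that library's filtered alignments on mm10 per the file headers and notes. Which aligner, peak caller and threshold were used is not given in the sources used here, and the depth is unknown. Duplicate lines (43 in replicate 1, 20 in replicate 2) were dropped. Centres were assigned with GENCODE M21 to promoter (within 1 kb of a start site of a coding gene), exon, intron or intergenic sequence, and exons to coding sequence, 5′ UTR, 3′ UTR or exons of non-coding transcripts in that order of preference. Densities are per Mb of sequence without gaps and away from promoters. Standardised ratios divide the number of peaks by that given by the intron density in the same of 6 distance and 6 GC classes, over 150 bp windows tiled along the genome. Score percentiles are ranks within a library. The 9 consensus motifs were matched on both strands without mismatch. Named genes are the hosts of the 10 peaks with the highest mean percentile, the 10 genes with most peaks, the hosts of wholly coding peaks of highest rank with CTCF (6), AP-1 (3), NFI and CRE matches (1 each; RFX had none), leaving out chromosome 18, up to 3 genes with most peaks of each of 13 gene lists, and the 4 peaks nearest to the distance limit. For the families, the numbers of genes and the first genes are given, and some genes that this rule names are left out of the text. Intervals are Wilson's at 95%. Peak overlap, the union of exons, the distance to the nearest start site and motif matching were tested on a simulated chromosome. The standardised ratios, the parts of exons and the reading frames were not part of that test. Alternatives were the overlap, the distance limit, the start sites, the exon set, the score, the library counted and the motif window. The region set, the gene lists and the motifs were chosen with earlier results of these data known. Python 3.11.15, numpy 2.4.6, pandas 2.3.3 and scipy 1.17.1 were used.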

Additional observations from a re-analysis of the deposited data

How the results depend on the processing

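No paired analysis was possible because the series holds 1 group and no comparison between samples. The number of shared exon peaks was 2440 with only the higher-scoring peaks of each list (those above its median) and 7169 with the outermost start site per gene alone, and every peak of a single library gave 6469 to 6690. The ratio of exon shares to sequence was 2.055 at a promoter distance of 0.5 kb, 1.995 with the higher-scoring peaks, 2.273 with the outermost start sites and 1.758 to 1.923 with 1 library. With introns in place of all sequence as the base, the ratio of exon to intron density was 1.457. At equal distance and GC content that ratio was 0.7453, and 0.6413 without repeats, both added after seeing the data. The share of exon peaks found in the other library was 63.5% with overlap of 75 bp or more, 69.5% at 2.5 kb, 78.89% with the higher-scoring peaks, 70.52% with the outermost start sites and 66.58% in the list of replicate 2. The CTCF share was 5.769% with the longer overlap, 4.453% at 0.5 kb, 5.68% at 2.5 kb, 7.131% with the higher-scoring peaks, 4.171% with the outermost start sites, 5.145% within 50 bp of the centre and 3.707% to 3.988% with 1 library. Leaving out peaks or start sites changes the regions counted by construction, and the cause of the other shifts was not tested. All other alternatives left these values within 1.5 times (counts) or within the spread between the libraries. Mappability was not assessed, and read depth, which limits how many weak peaks a library gives, is unknown.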
